A study of Drosophila melanogaster with 4 samples.

Results

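Genes of microtubule motors and their adaptors were chosen by symbol, and 9 of the 10 were found among the 15682 genes of the deposited head RNA table. Found were the kinesin-1 genes Khc and Klc, the mitochondrial adaptor genes milt and Miro, the kinesin-2 gene Kap3, the dynein genes Dhc64C and sw, and the dynein regulator genes Lis-1 and nudE. The gene ID that the reference names table gives for unc-104, a kinesin-3 motor gene, was not matched to the deposited table, so unc-104 was not analysed here. All 9 were expressed highly enough to be among the 9049 genes tested. The study compared heads of Drosophila melanogaster, 2 libraries labelled w1118 from flies that did not express MJDtr-78Q and 2 libraries from flies that did. MJDtr-78Q is a truncated human ataxin-3 with an expanded polyglutamine tract, used as a model of Machado-Joseph disease. The labels give tissue and transgene state, and no source used here gives the driver, age, sex or number of flies. MJDtr-78Q RNA itself was not analysed here and could not serve as a check of the labels.

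The kinesins of axonal transport carry cargo towards microtubule plus ends, which point away from the cell body in axons. Cytoplasmic dynein carries cargo towards minus ends. Mitochondria reach axons and synapses through a chain in which the kinesin-1 heavy chain binds the adaptor Milton and Milton binds the outer membrane GTPase Miro. In dendrites of fly sensory neurons most microtubules point minus end outward, and dynein with Lis-1 moves endosomes and Golgi outposts into the branches. The series title concerns Golgi outposts, so the comparison asks whether transcripts of this machinery differed in heads that contained the toxic protein.

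None of the 9 transport genes differed between the groups beyond the spread between libraries. Values are log2(count + 1) after quantile normalization over the 4 libraries, and differences are MJDtr-78Q minus w1118 with n = 2 per group. Of the 9 differences 8 lay within 0.25 of 0, and the exception was nudE at -0.48. With limma and Benjamini-Hochberg adjustment over all tested genes at 0.05, 0 of 9 passed, each at an adjusted p = 1, against 0 of 9049 overall (0%). At an unadjusted p under 0.05 the count was 0 of 9, against 532 of all tested genes (5.88%). The median difference of the 9 was 0.06, beside -0.02 over all tested genes. With only MJDtr-78Q library 2 set against the controls that median was -0.04, and with only library 1 it was 0.24. The 2 libraries of a group are not said to come from separate flies, so the spread behind each p-value may be technical. In whole heads, fewer cells of a type and less RNA per cell cannot be told apart.

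**Figure D1:**
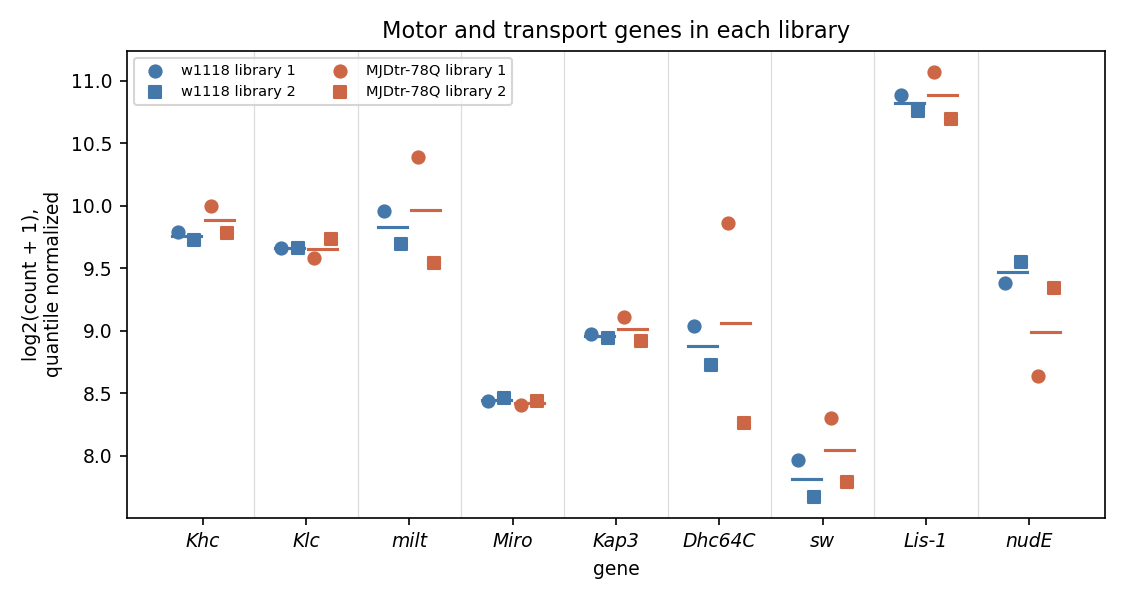
Level of each transport gene in each library, as log2(count + 1) after quantile normalization; circles and squares are libraries 1 and 2, and horizontal lines are group means. The gap between the MJDtr-78Q libraries is 1.59 for Dhc64C and -0.03 for Miro, and the MJDtr-78Q points lie wholly below the w1118 points for nudE.

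The libraries themselves stood apart in a way that touches these genes. Pearson's r over the tested genes was 0.975 between the w1118 libraries and 0.910 between the MJDtr-78Q libraries, while MJDtr-78Q library 1 had 0.949 and 0.899 and its replicate 0.952 and 0.953 with w1118 libraries 1 and 2. Among the fifth of genes with the shortest exonic length the median of MJDtr-78Q library 1 minus library 2 was -0.79, and among the fifth with the longest it was 0.82. In w1118 the same medians were -0.35 and 0.29. Back-transformed totals, made nearly equal within a group before deposit, were 7147717 and 7147867 in w1118 and 3111393 and 3111583 in MJDtr-78Q. As deposited, with no scaling between groups, the median difference over the tested genes was -1.23. Relative to that median, 8 transport genes were between 0.03 and 0.26 and nudE was at -0.39.

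Heads were represented as labelled by photoreceptor and neuron transcripts. Neuron markers had 13 of 14 genes in the table. Of these 12 of 13 had a difference above 0, against 4217 of 9049 over all tested genes. Their median was 0.17, but -0.18 from MJDtr-78Q library 2 alone and 0.47 from library 1 alone. Summed levels were 23749 and 30517 in w1118 and 27170 and 44944 in MJDtr-78Q. After length correction the neuron median was 0.0089, and the median gap between the MJDtr-78Q libraries was 0.67 for these genes. Photoreceptor markers (11 of 12 in the table) summed to 140614 and 141591 in w1118 and to 73473 and 88269 in MJDtr-78Q, with a median difference of -1.06. Of these 11 genes 8 were lower at a limma unadjusted p under 0.05, with both MJDtr-78Q libraries below the controls. Over all tested genes 219 of 9049 were lower at that p, and 15.5% had both MJDtr-78Q libraries below. Glia markers had a median of -0.08 over 8 genes, muscle markers 0.35 over 8, fat body markers -0.10 over 7 and hemocyte markers 0.47 over 7. None of the marker genes passed the limma test after quantile normalization, and the photoreceptor channel gene trpl, chosen after its value was seen, passed after length correction, with a difference of -3.09 (limma adjusted p = 0.0163). Of 7 male germline markers 5 were at 0 in every library and none was tested. The part of these markers in the values of the transport genes was not tested.

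Khc (FBgn0001308, 2R, positions 12154464 to 12159483 in the deposited table, for which no source used here names the build) encodes the motor subunit of kinesin-1. It was at 9.79 and 9.73 in w1118 and at 9.99 and 9.78 in MJDtr-78Q. The groups overlapped, because MJDtr-78Q library 2 fell between the w1118 libraries. The difference was 0.13 (SE 0.23), or 1.09-fold with a 95% interval of 0.72 to 1.65-fold. A 2-fold change in either direction lay outside this interval.

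Klc (FBgn0010235, 3L, positions 12739715 to 12743156) encodes the light chain, which binds cargo. Its level was 9.66 in both w1118 libraries, and MJDtr-78Q was at 9.58 and 9.73, on either side of the controls. The difference was -0.01 (SE 0.22), which turned to 0.04 with median scaling, and its interval ran from 0.66 to 1.49-fold. Within each library the log2 ratio of Klc to Khc counts was -0.13 and -0.06 in w1118 and -0.41 and -0.05 in MJDtr-78Q. The ratio in MJDtr-78Q library 1 was the lowest of the 4, and the groups overlapped.

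The adaptor gene milt (FBgn0262872, 2L, positions 7037822 to 7056010) encodes Milton. It was at 9.96 and 9.69 in w1118 and at 10.39 and 9.54 in MJDtr-78Q, so that both the highest and the lowest of the 4 values were MJDtr-78Q libraries. The difference was 0.14 (SE 0.36), with a 95% interval of 0.58 to 2.10-fold that included a 2-fold rise. Leaving out MJDtr-78Q library 1 gave a difference of -0.28, and leaving out its replicate gave 0.56.

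Miro (FBgn0039140, 3R, positions 19860083 to 19864569) had the narrowest spread of the 9 genes. The GTPase gene was at 8.43 and 8.46 in w1118 and at 8.41 and 8.44 in MJDtr-78Q, a range of 0.05 over the 4 libraries. The difference was -0.02 (SE 0.22), with an interval of 0.67 to 1.45-fold, and turned to 0.0045 with median scaling. In a current reference annotation 633 exonic bases of Miro, 16.7% of its exonic length, overlap spas on the opposite strand. No source used here says whether reads were counted by strand. The log2 ratio of milt to Miro counts was 1.53 and 1.23 in w1118 and 1.98 and 1.10 in MJDtr-78Q, so that the groups overlapped.

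Kap3 (FBgn0028421, X, positions 11228219 to 11234117) encodes the non-motor subunit of heterotrimeric kinesin-2. Its levels were 8.97 and 8.94 in w1118 and 9.11 and 8.92 in MJDtr-78Q, and the groups overlapped. The difference was 0.06 (SE 0.23), with an interval of 0.69 to 1.57-fold. Relative to Khc in the same library, Kap3 counts had log2 ratios of -0.82 and -0.78 in w1118 and -0.88 and -0.86 in MJDtr-78Q. Of the 9 ratios formed between transport genes this was the only one whose groups did not overlap after quantile normalization, and the group means differed by -0.07. A difference between 2 and 2 libraries cannot reach p below 0.333 in an exact permutation test.

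Dhc64C (FBgn0261797, 3L, positions 4807367 to 4825687) encodes the heavy chain of cytoplasmic dynein, the subunit with motor activity. It was at 9.04 and 8.73 in w1118 and at 9.86 and 8.26 in MJDtr-78Q. The MJDtr-78Q libraries lay on either side of both controls and were 1.59 apart, the widest gap among the 9 genes. The difference of 0.18 (SE 0.56) therefore had an interval of 0.41 to 3.13-fold, which covers a 2-fold change both ways. From library 2 alone the difference was -0.62, and from library 1 alone it was 0.98.

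The intermediate chain gene sw (FBgn0003654, X, positions 20099033 to 20107456), which links the dynein motor to dynactin, was at 7.96 and 7.67 in w1118 and at 8.30 and 7.79 in MJDtr-78Q. MJDtr-78Q library 1 was the highest and the other 3 libraries lay within 0.29 of each other. The difference was 0.23 (SE 0.28), with an interval of 0.70 to 1.95-fold. From MJDtr-78Q library 2 alone it was -0.02, and from library 1 alone 0.48. The log2 ratio of sw to Dhc64C was -1.07 and -1.05 in w1118 but -1.56 and -0.47 in MJDtr-78Q, one below and one above the controls.

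Lis-1 (FBgn0015754, 2R, positions 12066330 to 12072608), whose product binds the dynein motor domain and regulates its hold on microtubules, was at 10.88 and 10.76 in w1118 and at 11.07 and 10.70 in MJDtr-78Q, with overlapping groups. The difference was 0.06 (SE 0.25), with an interval of 0.66 to 1.64-fold. From MJDtr-78Q library 2 alone it was -0.13, and from library 1 alone 0.25.

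The gene nudE (FBgn0036059, 3L, positions 9892340 to 9896065), whose product joins Lis-1 to dynein, was at 9.39 and 9.55 in w1118 and at 8.64 and 9.35 in MJDtr-78Q. Both MJDtr-78Q libraries lay below both controls, library 2 by only 0.04 below the nearer control. This was the only transport gene whose groups did not overlap, 1 of 9, against 29.5% of all tested genes and 15.5% with MJDtr-78Q lower, and with median scaling its groups overlapped. The difference was -0.48 (SE 0.32), or 0.72-fold with an interval of 0.40 to 1.28-fold (limma unadjusted p = 0.198). From MJDtr-78Q library 2 alone it was -0.12, and from library 1 alone -0.83. The log2 ratio of nudE to Lis-1 was -1.50 and -1.21 in w1118 and -2.43 and -1.35 in MJDtr-78Q, and here the groups overlapped.

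**Figure D2:**
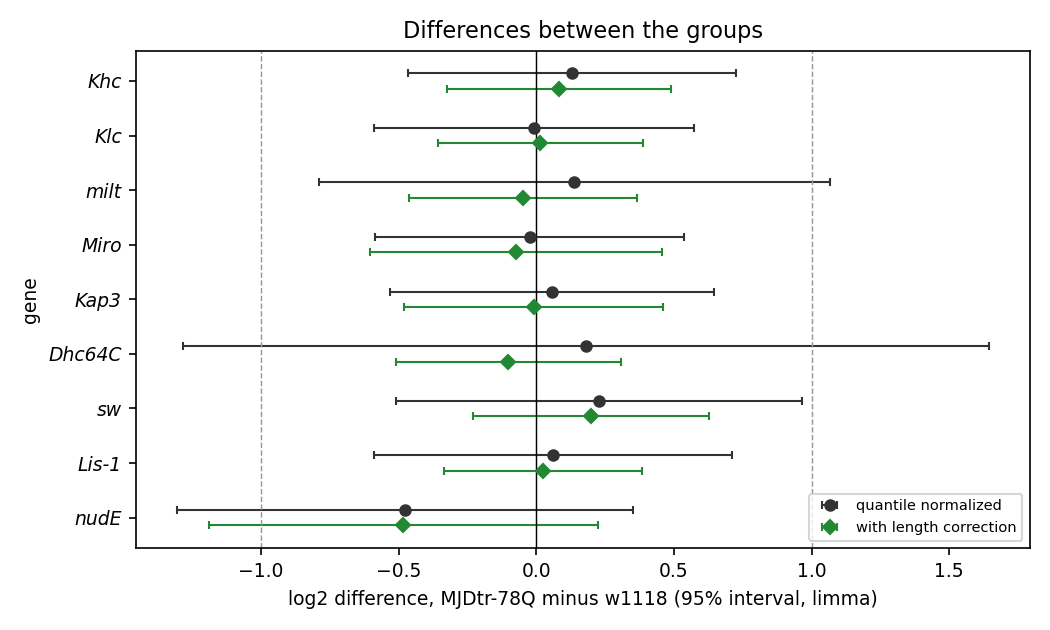
Log2 difference between the groups for each transport gene with its 95% limma interval, after quantile normalization and after a further correction for transcript length; dashed lines mark a 2-fold change either way. All intervals include 0, and that of Dhc64C shortens from -1.28 to 1.65 before to -0.51 to 0.31 after length correction.

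For 6 of the 9 genes (Khc, Klc, Miro, Kap3, sw and Lis-1) the 95% interval stayed within 2-fold either way, against 43.9% of all tested genes. For milt, Dhc64C and nudE it did not, so a 2-fold rise of milt, a 2-fold fall of nudE and a 2-fold change of Dhc64C in either direction were not excluded. The median standard error was 0.25 over the 9 and 0.31 over all tested genes.

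The gap between the MJDtr-78Q libraries followed transcript length among the transport genes. MJDtr-78Q library 1 was the highest of the 4 libraries for 6 of the 9 genes. For all 9 the MJDtr-78Q libraries were farther apart than the w1118 libraries. The shares of all tested genes with these 2 patterns were not counted. Over all tested genes, too, the MJDtr-78Q libraries were less alike (r = 0.910) than the w1118 libraries (r = 0.975). Over the 9 genes the gap had Pearson's r = 0.888 and Spearman's rho = 0.667 with log2 exonic length. Over 8641 tested genes with a length r was lower, at 0.706, and rho was higher, at 0.754. These are descriptions across genes measured in the same libraries, and genes are not independent replicates. Dhc64C, with 14597 exonic bases, had a gap of 1.59, where the 432 genes of the longest twentieth had a median of 1.16 and an upper quartile of 1.54. The next longest, milt, with 7667 bases, had a gap of 0.84, beside a median of 0.91 in genes of like length. Klc, the shortest at 2065 bases, had a gap of -0.15, beside a median of -0.20.

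Another 2 genes lay outside the middle 50% of genes of like length on the low side. The gap of nudE (2664 bases) was -0.71, where genes of like length had a median of 0.09 and a lower quartile of -0.16. That of Miro (3791 bases) was -0.03, where the median was 0.44 and the lower quartile 0.12. After a trend on length was removed from each library, the gap of Dhc64C was 0.08, that of milt -0.22, that of nudE -0.81 and that of Miro -0.47.

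**Figure D3:**
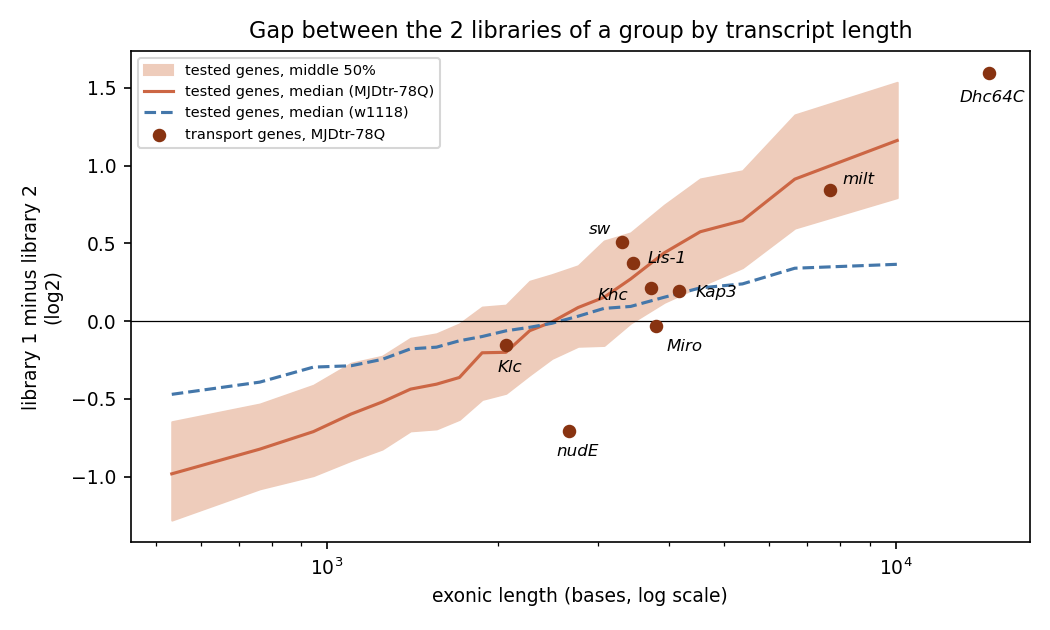
Library 1 minus library 2, as a log2 difference, against exonic length on a log scale; points are the transport genes in MJDtr-78Q, the solid line and band are the median and middle 50% of tested genes in 20 length groups for MJDtr-78Q, and the dashed line is the median for w1118. Each length group is drawn at its median length. Dhc64C at 1.59 lies above the upper quartile of the longest group, 1.54, and nudE at -0.71 and Miro at -0.03 lie below the band.

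With the length trend removed, 0 of 9 transport genes passed, against 6 of 8641 genes (0.0694%). The difference of Dhc64C was then -0.10 with a 95% interval of -0.51 to 0.31, and that of milt was -0.05 with an interval of -0.46 to 0.37, both on the other side of 0 from the uncorrected values. Khc was at 0.08, sw at 0.20 and Lis-1 at 0.02, and Klc, Miro and Kap3 were at 0.02, -0.07 and -0.01. The difference of nudE remained at -0.48, with an interval of -1.19 to 0.22 (limma adjusted p = 0.622), and its groups then overlapped. Groups did not overlap for 2 of 9, sw by 0.017 and Lis-1 by 0.0042 with MJDtr-78Q above, against 41.6% of the genes with a length. Intervals stayed within 2-fold for all of the 9 genes except nudE, against 72.4% of the genes with a length.

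To order the genes by level, values were divided by kilobases of exonic length and put on a log2 scale. The count ratios given above are not per length, so they serve to compare libraries and not genes. Lis-1 was highest in every library, from 8.90 to 9.28, and Klc was next in every library, from 8.53 to 8.68. Dhc64C was lowest in every library, from 4.39 to 5.99. The mean of Lis-1 was 15.6 times that of Dhc64C, a span that rests on annotated exonic length and not on the isoforms present. The span also varied by library. Lis-1 and Dhc64C were at 9.28 and 5.99 in MJDtr-78Q library 1, and at 8.90 and 4.39 in library 2.

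Next came Khc and nudE, with means of 7.93 and 7.81 and overlapping ranges over the 4 libraries. Within libraries nudE was above Khc in both w1118 libraries and in MJDtr-78Q library 2, and below it in MJDtr-78Q library 1. Below them milt (6.96) and Kap3 (6.93) overlapped as well, as did nudE with milt, Miro (6.51) with sw (6.20), and sw with Dhc64C (5.10). Lis-1 and Klc, Klc and Khc, and Kap3 and Miro were the neighbours whose ranges did not overlap. The kinesin-1 light chain was thus above the heavy chain per length in each library, 1.61 times as high on average.

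**Figure D4:**
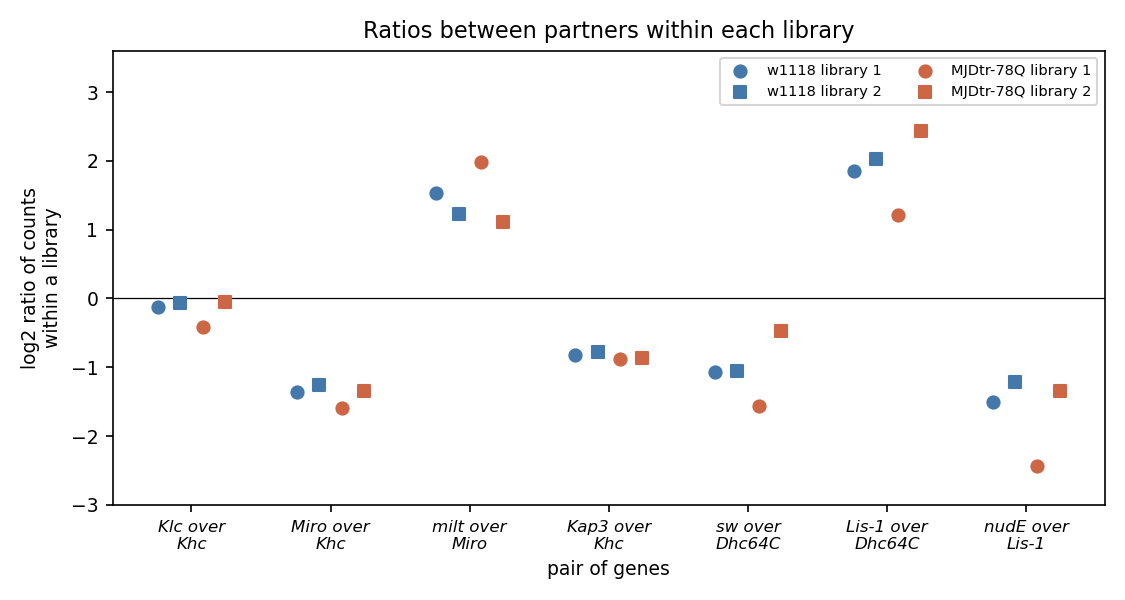
Log2 ratio of counts between partner genes within each library, after quantile normalization and not per length. The w1118 libraries lie close together for sw over Dhc64C at -1.07 and -1.05, whereas the MJDtr-78Q libraries lie on either side at -1.56 and -0.47.

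Other genes of the transport machinery gave no calls, as was so for every tested gene. The 11 lists held 102 genes, of which 93 were in the table and 76 were tested, 9 of them the genes above. Of the other 67 genes 0 passed, against 0 of 9049 over all tested genes. A limma unadjusted p under 0.05 was found for 2 of the 67, against 532 of 9049 (5.88%). Differences were above 0 for 35 of the 67, against 4217 of 9049. The median difference of the 67 was 0.01. Both MJDtr-78Q libraries lay above the controls for 9 of the 67 and below for 8, against 14% and 15.5% of all tested genes.

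The cytoplasmic dynein list had a median difference of 0.18 over 6 tested genes. It was 0.04 from MJDtr-78Q library 2 alone, 0.59 from library 1 alone and 0.095 after length correction. The light chain gene ctp was at 11.49 and 11.29 in w1118 and at 12.09 and 11.62 in MJDtr-78Q. Its difference was 0.47 (SE 0.27), with 0.71 from MJDtr-78Q library 1 alone and 0.23 from library 2 alone. The light chain gene Dlc90F differed by -0.17 (SE 0.32), which turned to 0.11 from MJDtr-78Q library 2 alone (-0.45 from library 1) and to 0.06 without w1118 library 2. The copy Cdlc2 was at 0 in all libraries. The proteins of ctp and Cdlc2 are nearly identical, and whether their transcripts are alike enough to share reads was not tested.

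Among dynein regulators and adaptors (8 tested genes, median 0.06, or -0.07 and 0.20 from MJDtr-78Q libraries 2 and 1 alone), the largest difference was that of nudC. Its product is known from other organisms as a partner of the Lis-1 and dynein pathway. It was at 7.36 and 7.05 in w1118 and at 7.96 and 8.31 in MJDtr-78Q, a difference of 0.93 (SE 0.26) that did not pass (limma adjusted p = 0.660). The groups did not overlap, and the difference was 0.75 from MJDtr-78Q library 1 alone and 1.10 from library 2 alone. The adaptor gene hook differed by -0.32 (SE 0.29), with -0.62 from MJDtr-78Q library 1 alone and -0.02 from library 2 alone.

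Dynactin, the complex that dynein needs for long runs, had 10 tested genes with a median difference of -0.06, which turned to 0.0074 after length correction and to 0.20 from MJDtr-78Q library 2 alone (-0.35 from library 1). DCTN6-p27, a gene of its pointed-end subcomplex, was at 7.27 and 7.70 in w1118 and at 6.31 and 6.97 in MJDtr-78Q. Its groups did not overlap, and the difference of -0.85 (SE 0.33) did not pass (limma adjusted p = 0.843). DCTN5-p25, of the same subcomplex, differed by -0.34 (SE 0.33), which turned to 0.02 from MJDtr-78Q library 2 alone (-0.71 from library 1). The remaining 8 dynactin genes had intervals within 2-fold.

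Kinesin lists had small medians too, 0.06 over 10 kinesin-1 and adaptor genes, -0.08 over 4 kinesin-2 genes, 0.19 over 3 kinesin-3 genes and -0.04 over 7 other kinesins. After length correction these medians were -0.0037, -0.09, -0.03 and -0.09, so that the kinesin-1 and kinesin-3 medians turned. The kinesin-1 median was -0.04 from MJDtr-78Q library 2 alone and 0.25 from library 1 alone. From MJDtr-78Q library 2 alone the kinesin-3 median was -0.29, and from library 1 alone 0.41. Appl, the fly amyloid precursor protein gene, was at 11.05 and 10.69 in w1118 and at 12.23 and 10.74 in MJDtr-78Q. Its difference was 0.62 (SE 0.54), with 1.36 from MJDtr-78Q library 1 alone and -0.13 from library 2 alone. Pat1 differed by 0.29 (SE 0.28), 0.57 and 0.02 from libraries 1 and 2 alone. In the kinesin-2 list the motor subunit gene Klp64D differed by -0.15 (SE 0.24), and Kif3C by -0.74 (SE 0.48), with 7.30 and 6.95 in w1118 and 7.03 and 5.76 in MJDtr-78Q, or -0.10 and -1.37 from MJDtr-78Q libraries 1 and 2 alone. The kinesin-3 gene Khc-73 differed by 0.19 (SE 0.40), with 0.68 from MJDtr-78Q library 1 alone, -0.30 from library 2 alone and -0.03 after length correction. Another kinesin-3 gene, neb, was low, at 4.22 and 3.53 in w1118 and at 4.28 and 4.19 in MJDtr-78Q. It differed by 0.36 (SE 0.45), and by 0.015 without w1118 library 2 and 0.71 without w1118 library 1. The mitotic kinesin gene ncd was at 4.23 and 4.45 in w1118 and at 5.44 and 5.15 in MJDtr-78Q, a difference of 0.96 (SE 0.33, limma adjusted p = 0.766), and Klp54D differed by -0.59 (SE 0.42). Of the 16 kinesins in that list 9 were too low to test.

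Genes of mitochondrial fusion, fission and quality control had a median difference of -0.16 over 10 genes, with 4 above 0. The ubiquitin ligase gene park, which acts with Pink1 on damaged mitochondria, was at 6.16 and 6.19 in w1118 and at 5.34 and 5.83 in MJDtr-78Q. It differed by -0.59 (SE 0.29) and did not pass (limma unadjusted p = 0.0982). The fusion gene Marf differed by -0.24 (SE 0.22), also with both MJDtr-78Q libraries below the controls.

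The microtubule track genes gave no call either. Of 10 listed tubulin genes 8 were in the deposited table, while betaTub56D and betaTub60D were not matched and so not analysed. Tubulins had a median of 0.10 over 6 tested genes. Among them alphaTub67C and alphaTub85E differed by 0.96 (SE 0.62) and 0.82 (SE 0.45). Both were low, alphaTub67C at 2.71 and 4.15 and alphaTub85E at 3.44 and 4.30 in w1118. Without w1118 library 1 they differed by 0.24 and 0.39, and without w1118 library 2 by 1.69 and 1.25. Tubulin genes are similar in sequence, so their separate counts are uncertain. Of 12 listed microtubule-associated protein genes 10 were tested, while tau and stai were not matched. The median of the 10 was 0.14. It turned to -0.06 after length correction and to -0.27 from MJDtr-78Q library 2 alone (0.68 from library 1). Their median gap between the MJDtr-78Q libraries was 0.99. In that list the severing enzyme gene spas differed by 0.42 (SE 0.29) and the end-binding gene Eb1 by -0.36 (SE 0.29), or -0.65 and -0.07 from MJDtr-78Q libraries 1 and 2 alone. Of 10 listed axonemal dynein heavy chains, which belong to cilia, 7 were in the deposited table. Of these 7 only Dhc93AB and Dhc98D were high enough to test. They differed by -1.38 (SE 0.77) and 1.29 (SE 0.60). Dhc93AB was at 5.06 and 5.04 in w1118 and at 4.73 and 2.61 in MJDtr-78Q. Dhc98D was at 3.90 and 3.18 in w1118 and at 5.48 and 4.19 in MJDtr-78Q. From MJDtr-78Q libraries 1 and 2 alone the differences were -0.32 and -2.44 for Dhc93AB, and 1.94 and 0.64 for Dhc98D. Both genes are long, with 14010 and 15919 exonic bases, and both kept their direction after length correction.

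**Figure D5:**
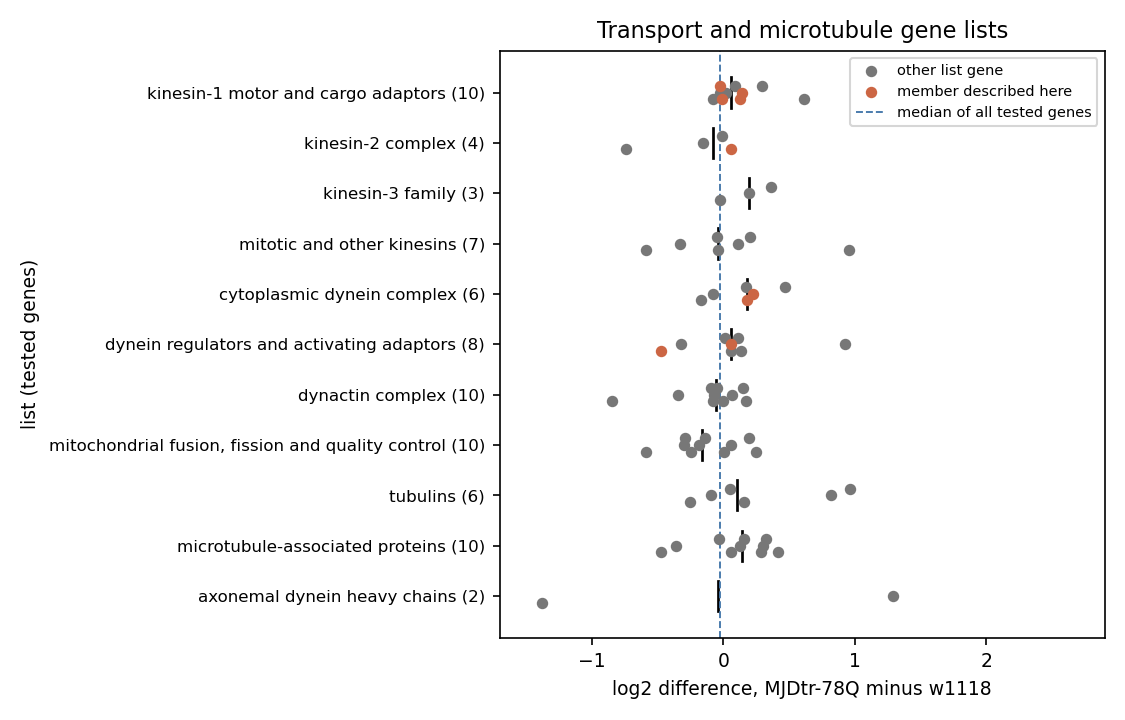
Log2 difference between the groups for each tested gene of the 11 transport and microtubule lists; orange points are the transport genes chosen by symbol, black bars are list medians and the dashed line is the median of all tested genes at -0.02. List medians run from -0.16 for mitochondrial fusion, fission and quality control genes to 0.19 for kinesin-3 genes, the latter -0.03 after length correction.

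For each transport gene the list gene with the nearest pattern was found from the root mean square difference of values centred on each gene's mean over the 4 libraries, among 75 other genes. Khc was nearest to the dynactin gene DCTN1-p150 (0.03), Lis-1 to Unc-76 (0.02), Kap3 to Khc (0.04), and Klc and Miro to each other (0.04). Further pairs were sw with vimar (0.04), milt with Khc-73 (0.06), nudE with Eb1 (0.08) and Dhc64C with ens (0.15). Genes with little spread lie close on this measure, and Miro and Klc had ranges of only 0.05 and 0.15 over the 4 libraries. Shared regulation within the pairs was not tested.

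Annotated overlaps with neighbours were small for the other genes. Klc shares 7.51% of its exonic length with CG32109 and Kap3 5.09% with CG34348, both on the opposite strand, and nudE shares 4.32% with CG46387 on its own strand. For milt and Dhc64C the shared part was 0.73% and 0.27%, and for Khc, sw and Lis-1 the annotation gives none. Transcript models differ widely, from 1 annotated transcript of Khc to 15 of sw and 8 of Dhc64C, and the gene-level counts do not separate them.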

How the data were processed

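Poly(A) RNA of fly heads was sequenced in 4 libraries made with a stranded kit, per the labels' protocols. Tools listed in the submitters' processing notes, with no role given, are TopHat2 2.0.10 and Bowtie, HTSeq 0.6.1, cutadapt 1.2.1 and CASAVA 1.8.2. Values were deposited as log2 of counts with 1 added, quantile normalized by the authors within each group and not between groups, as read from the values; the build is not given in the sources used here. Here the 4 libraries were quantile normalized together, genes with a back-transformed mean of at least 10 were kept, and limma 3.58.1 in R 4.3.3 compared the groups (intensity trend, two-sided, Benjamini-Hochberg over 9049 genes). The log2(count + 1) scale understates changes of low genes. Counting error per gene is unknown, because whole reads cannot be recovered from averaged log values. Symbols came from a reference table, with 15002 of 15682 IDs matched. An Ensembl annotation gave exonic lengths for 8641 tested genes (95.5%), and exonic overlaps were taken from it for the members only. Length correction subtracted, library by library, a loess fit (span 0.5) of the values on log2 exonic length.

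The members and lists were chosen with earlier results of these data known. Named besides the members were, in each transport list, the 2 tested genes with the lowest p, and the nearest gene to each member. From the marker lists, whose extreme genes the rule would also name, counts, medians and sums are given. Listed genes whose ID was not matched to the table were not analysed here. Alternatives were other scalings, pseudocounts (0.5 and 5), filters, variance priors, the replicate number as a block, length correction, and each library left out.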

Additional observations from a re-analysis of the deposited data

How the results depend on the processing

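Over all tested genes the count past the threshold was 0, and it was 6742 with the deposited scaling, 49 with no filter, 387 with the replicate block, 6 with length correction, 737 with length correction and the replicate block, and 0 to 7 when 1 library was dropped (7 without w1118 library 1). With a library dropped 1 group is a single library, assumed to vary like the other group, so such counts say little about stability. Transport genes past the threshold were 8 of 9 with the deposited scaling and 0 under every other alternative run. Genes of the 11 lists, members included, past the threshold were 53 with the deposited scaling and 3 with length correction and the replicate block (Kif3C, nudC and DCTN6-p27), otherwise 0. The median difference of the 9 was -1.08 with the deposited scaling and ran from -0.038 to 0.24 when 1 library was dropped (0.24 from MJDtr-78Q library 1 alone). Groups did not overlap for 9 of the 9 with the deposited scaling (90.4% of all tested genes), and for 2 with median scaling (Khc and Kap3; 30.6%), upper-quartile scaling (nudE and Miro; 32.3%) and length correction (sw and Lis-1; 41.6%). With the deposited scaling the differences were -1.03 for Khc, -1.17 for Klc, -0.98 for Dhc64C, -0.97 for sw and -1.15 for Lis-1. They were -1.63 for nudE, -1.02 for milt, -1.21 for Miro and -1.08 for Kap3. That scaling has no step between groups, and the median over all tested genes was -1.23 with it. Of the genes past the threshold with it 6728 were lower and 14 were higher. Length correction, with or without the block, turned Klc to 0.015, Dhc64C to -0.10, milt to -0.048 and Kap3 to -0.0093. Median scaling turned Klc to 0.040 and Miro to 0.0045. With a library left out the differences ran from 0.02 to 0.24 for Khc, -0.085 to 0.066 for Klc, -0.62 to 0.98 for Dhc64C, -0.024 to 0.48 for sw, -0.13 to 0.25 for Lis-1 (-0.0015 without w1118 library 2), -0.28 to 0.56 for milt, -0.04 to -0.01 for Miro (-0.0073 at its nearest to 0), -0.038 to 0.16 for Kap3 and -0.83 to -0.12 for nudE. In all, 118 of the 144 member values kept their direction and their side of the threshold, 23 turned and 3 passed the threshold with the same direction.

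The labels do not say that equal replicate numbers share a batch, and 2 pairs cannot show it. Deviations of same-numbered libraries from their group means had r = 0.536, and 0.331 after length correction. With the replicate block 0 of 9 transport genes passed, lowest adjusted p = 0.546 for nudE. With the block and length correction nudE was at adjusted p = 0.131.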
